A study of Mus musculus with 18 samples.

Results

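The genes described here are the nuclear genes for subunits of the oxidative phosphorylation (OXPHOS) machinery. They were chosen by name from the 20275 genes of the deposited count matrix, as every symbol that starts with Nduf followed by a, b, c, s or v, with Uqcr, with Cox4 to Cox8 or with Atp5, together with Sdha, Sdhb, Sdhc and Sdhd, and without the Ndufaf assembly factors. This gave 84 genes, of which 36 belong to complex I, 4 to complex II, 8 to complex III, 20 to complex IV and 16 to complex V. Ndufa4 and Ndufa4l2 were counted with complex IV, where the Ndufa4 protein is known to sit in spite of its name.

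OXPHOS is the process by which mitochondria use electrons from nutrients to make ATP. Complexes I and II pass electrons to complex III and complex IV, which hands them to oxygen, and complex V, the ATP synthase, uses the proton gradient built up on the way. Most subunits are encoded in the nucleus, but the catalytic cores of complexes I, III and IV and part of complex V also need subunits encoded in mitochondrial DNA. Several complex IV subunits have tissue-restricted partners, such as Cox4i2, Cox6a2, Cox6b2, Cox7a1 and Cox8b, which take the place of the common form in certain cells. In blood-forming tissue, quiescent stem cells are known to rely less on OXPHOS than their differentiating progeny.

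The data are droplet single-cell 3′ RNA-Seq libraries (the mRNA part of CITE-Seq) from bone marrow (BM) of C57B6/J mice, with cells pooled from several animals per library. Hematopoietic progenitors (HPs) were sorted as CD45+Lineage−c-Kit+ cells and stroma as CD45−Ter119− cells from the fetal stages E16.5 and E18.5, from newborns (P0) and from adults. No group carried a transgene or a treatment. E16.5 HPs were sequenced as 2 libraries and each other combination of stage and compartment as 1, so that 5 HP and 4 stromal libraries were compared. The p-values below rest on the spread left between these libraries after the terms of each fit. Apart from the E16.5 HP pair, that spread comes from libraries of different stages or compartments, and not from replicates. Of 56201 deposited cells, the 52231 with at least 1000 UMIs (unique molecular identifiers, each counting 1 captured transcript) were used, and a library held from 13965023 (E16.5 HP 1) to 194084293 UMIs (P0 stroma).

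The labelled compartments stood apart in the counts. Ptprc, the gene for CD45, stood at 79.0 to 163 counts per 1000000 UMIs (CPM) in the HP libraries and at 0.0089 to 0.0327 CPM in stroma, and Kit stood at 108 to 348 CPM against 0.970 to 2.47 CPM. The authors also took contaminating blood cells out of processed stromal data, and where the deposited tables come after that step, the sort and the removal cannot be told apart in these values. Cells are named below by the annotation codes that the authors deposited, which were themselves made from these counts. For some codes the markers went against the letters of the code. The stromal codes P1i and P-2 (E16.5), P1 (E18.5 and adult) and P3 (P0) had 4 to 6 of 6 skeletal muscle markers at least 2-fold above the other cells of their library, whereas F4 at E16.5, P2 of both E18.5 and P0, and the adult P4 had 6 of 7 pericyte markers. P4 also had 4 of 6 erythroid markers above the rest. These codes are called muscle-marker and pericyte-marker codes below.

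Cell barcodes recurred between libraries. Of the 36 pairs of libraries, 4 shared 100 or more barcodes. E16.5 HP 1 shared 330 of its 560 barcodes (58.9%) with adult HP and 153 (27.3%) with P0 HP. E18.5 HP shared 375 of its barcodes (10.8%) with adult HP, and adult HP shared 225 of its barcodes (3.76%) with P0 HP. The other 32 pairs shared at most 83. In the first pair the median cell held 30840 UMIs in E16.5 HP 1 and 668 in adult HP, and 288 of the 330 adult cells fell under the limit of 1000 UMIs. Library shares and tests that rest on these libraries were therefore also computed without the cells whose barcode occurs in another library, as were the shares of HP codes and the levels of single genes in a part of these codes, and those that moved most are given both ways. What the shared barcodes contribute was not tested beyond that.

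Promoter sequences of RefSeq (GRCm38.p6, 250 bases before to 50 bases after a gene's start) were matched by symbol for 66 of the 84 genes, with 71 promoters. The sequences of Cox6b1 and Cox6b2, the common and the restricted form of a complex IV subunit, are shown because the part of the restricted form in the pair differed between libraries, as described below. That of Cox6a1 is shown because it holds the motif of NRF1, a transcription factor known for its role in mitochondrial biogenesis, and that of Atp5pb (RefSeq's symbol for Atp5f1) because its transcript was highest in mast cell codes. Capitals mark matches on either strand to any of 5 motifs, of which the NRF1 motif is a palindrome of alternating G and C around a central CATG. The motif of ETS factors, common near the starts of housekeeping genes, was searched as CCGGAAG. That of Sp factors, which bind GC-rich promoters, was searched as GGGCGG. The core of the hypoxia response element was searched as ACGTG, which also lies within a common E-box and can then match on both strands. The motif of GATA factors, known for their role in blood cells, was searched as AGATAA.
Cox6b1, chr7:30626065-30626364, minus strand: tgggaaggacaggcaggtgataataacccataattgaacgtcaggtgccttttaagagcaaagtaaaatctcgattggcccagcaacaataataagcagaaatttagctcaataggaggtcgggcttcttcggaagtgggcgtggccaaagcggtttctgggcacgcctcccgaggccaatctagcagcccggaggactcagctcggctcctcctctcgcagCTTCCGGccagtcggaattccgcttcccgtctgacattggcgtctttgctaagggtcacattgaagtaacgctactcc
Cox6b2, chr7:4753045-4753344, minus strand: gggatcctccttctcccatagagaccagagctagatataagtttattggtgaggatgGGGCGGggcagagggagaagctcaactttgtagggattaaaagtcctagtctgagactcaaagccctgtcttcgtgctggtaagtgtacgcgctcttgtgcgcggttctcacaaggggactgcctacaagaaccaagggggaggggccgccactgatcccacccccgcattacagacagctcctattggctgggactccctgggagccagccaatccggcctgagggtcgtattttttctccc
Cox6a1, chr5:115348909-115349208, minus strand: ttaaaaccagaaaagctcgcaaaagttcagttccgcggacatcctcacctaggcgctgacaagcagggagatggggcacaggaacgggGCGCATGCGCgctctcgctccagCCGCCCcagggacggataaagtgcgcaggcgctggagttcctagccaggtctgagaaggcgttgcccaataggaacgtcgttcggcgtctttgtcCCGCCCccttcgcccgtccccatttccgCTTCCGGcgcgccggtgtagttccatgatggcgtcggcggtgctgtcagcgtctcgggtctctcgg
Atp5pb, chr3:105959214-105959513, minus strand: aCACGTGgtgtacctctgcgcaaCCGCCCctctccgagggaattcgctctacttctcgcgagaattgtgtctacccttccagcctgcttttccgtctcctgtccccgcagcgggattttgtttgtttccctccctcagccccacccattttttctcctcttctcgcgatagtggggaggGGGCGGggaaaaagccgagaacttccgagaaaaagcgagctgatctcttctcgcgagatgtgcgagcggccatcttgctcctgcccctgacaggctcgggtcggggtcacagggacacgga

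The NRF1 letters were found in 7.04% of the 71 promoters of these genes and in 0.971% of all 32851 promoters in the table, and the ETS letters in 22.5% against 8.86%. The other letters were found in more similar shares, at 39.4% against 35.7% for Sp, 23.9% against 19.6% for ACGTG and 8.45% against 11.2% for GATA. In the printed windows, Cox6b1 held an ETS match and Cox6b2 an Sp match. A match describes the letters of the window and says nothing about binding in these cells.

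Across whole libraries, transcripts of the 84 genes made up a larger part of the HP than of most stromal libraries. Their share of UMIs was 2.78% in E16.5 HP 1, 2.61% in E16.5 HP 2, 3.096% in E18.5 HP, 3.12% in P0 HP and 3.12% in adult HP. In stroma, by order of stage, it was 2.66%, 2.05%, 2.05% and 1.62%. The exact Poisson 95% intervals, which cover counting error only, were narrow (from 1.61% to 1.62% in adult stroma), and the 2 E16.5 HP libraries differed by more than their intervals. E16.5 stroma lay between both E16.5 HP libraries, and HPs were above stroma at each later stage. Without cells of recurring barcodes the share was 2.48% in E16.5 HP 1 (210 cells left), 2.98% in E18.5 HP and 3.12% in adult HP, which puts both E16.5 HP libraries below E16.5 stroma. This run drops every copy of such a barcode, also the one with more UMIs. The dropped cells had a median of 30898.5 UMIs in E16.5 HP 1 and 51292 in E18.5 HP, where the library medians were 23731 and 22670. The part of cell size in the lower shares was not tested. Such a sum joins all cell types of a library, so that a change in cell types and a change within cells cannot be told apart in it.

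**Figure D1:**
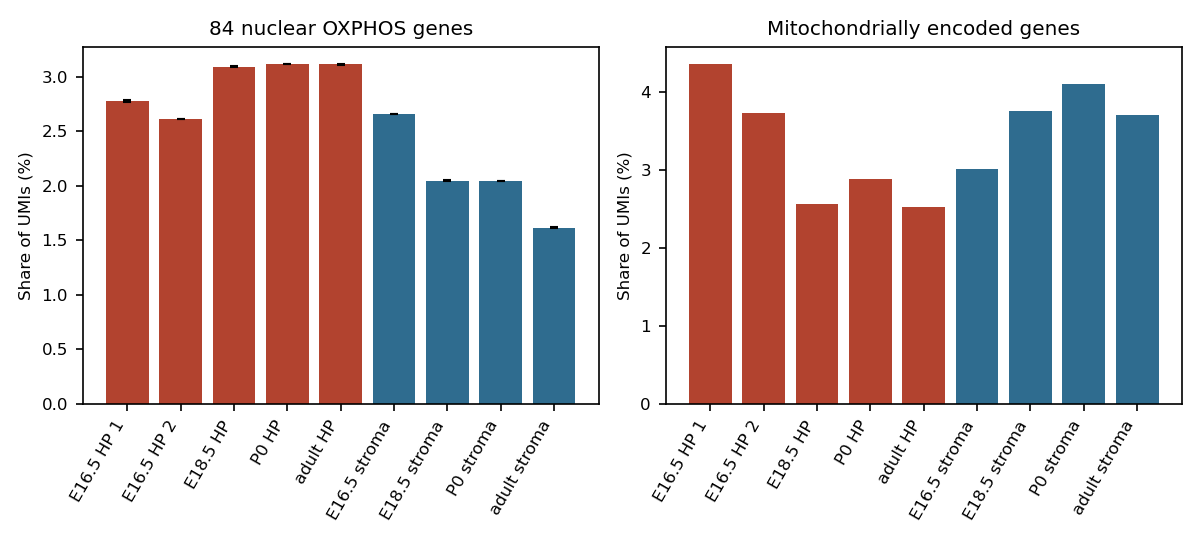
Share of UMIs (%) from the 84 nuclear OXPHOS genes (left, with exact Poisson 95% intervals) and from mitochondrially encoded genes (right) in each HP (red) and stromal (blue) library, cells of at least 1000 UMIs. The nuclear share falls from 2.66% to 1.62% over the stromal stages, whereas the mitochondrially encoded share is highest in E16.5 HP 1 at 4.35% and lowest in adult HP at 2.52%.

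Mitochondrially encoded transcripts did not follow the nuclear ones. Their share was 4.35% and 3.72% in the E16.5 HP libraries and 2.56%, 2.88% and 2.52% in the later HP libraries, and in stroma it was 3.01%, 3.75%, 4.10% and 3.70% in the order of stages. There were thus 1.57 and 1.42 mitochondrially encoded UMIs for each nuclear OXPHOS UMI in HPs at E16.5, and 0.808 to 0.925 in the later HP libraries. In stroma this ratio went from 1.13 at E16.5 to 1.83, 2.00 and 2.29. The authors had removed cells with a high share of mitochondrial UMIs, which limits the upper end of these shares. Cytosolic ribosomal protein transcripts, which take a large part of each library, fell to 12.2% in adult stroma from between 24.4% and 30.01% in the perinatal stroma, and took 25.8% to 31.6% in HPs. With both kinds of transcript taken out of the denominator, the share of the 84 genes was 4.02%, 3.71%, 4.59%, 4.76% and 4.69% in the HP libraries and 3.97%, 2.85%, 2.91% and 1.92% in stroma.

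To ask which subunits differed between the compartments, UMIs were summed per library and compared with edgeR's quasi-likelihood test with stage as a block (4 residual degrees of freedom, Benjamini-Hochberg adjustment over 18392 genes, threshold 0.05). All 84 genes passed the filter on low counts. Of them, 23 were higher in HPs, where 25.7% of all genes tested were called higher, and 5 were lower, where 31.9% of all genes were called lower (57.6% in either direction), and 56 were not called. Of the 5 lower genes 3 had only 2 or 3 UMIs in HPs and passed the filter through stroma, so that nothing is read from that count. The count of higher genes, 27.4% of the 84, is close to the background share in this fit. The median log2 fold change was 0.46 over the 84 genes and −0.05 over all genes tested. All 5 HP libraries lay above all 4 stromal libraries for 21 of the 84 genes (background 23.1%) and below them for 5 (background 28.6%). The count of 23 fell to 5 without E18.5 HP, where 15.2% of all genes were called higher, to 11 without P0 HP, E18.5 stroma or P0 stroma (15.8%, 16.6% and 16%), and to 16 without cells of recurring barcodes (22.3%). It rose to 31 without E16.5 stroma (24% of all genes) and to 33, or 39.3% of the 84 genes, without both E16.5 HP libraries (22.4%). How the count stands to the background thus depended on the libraries used.

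All 4 subunits of complex II, succinate dehydrogenase, which also works in the tricarboxylic acid cycle, were higher in HPs, where 25.7% of all genes were. Sdhd, a membrane anchor, stood at 144, 221, 173, 194 and 124 CPM in the HP libraries (E16.5 1 and 2, E18.5, P0, adult) and at 88.0, 88.9, 84.1 and 62.2 CPM in stroma (E16.5 to adult). Every HP library was above every stromal one (log2 fold change 1.01 ± 0.21 SE, edgeR adjusted p = 6.4e-03). Sdha, the flavoprotein that oxidises succinate, was higher by 0.90 ± 0.19 (adjusted p = 6.9e-03), Sdhb, which carries iron-sulfur centres, by 0.77 ± 0.21 (adjusted p = 0.017), and Sdhc by 0.62 ± 0.17 (adjusted p = 0.017), all on the log2 scale by edgeR. Leaving out 1 library at a time, the call for Sdhd held in 9 of 9 fits, whereas Sdha lost it in 1, Sdhc in 4 and Sdhb in 5. The losses came without E18.5 HP for Sdha, and for Sdhb and Sdhc without E18.5 HP, P0 HP, E18.5 stroma or P0 stroma, and for Sdhb also without E16.5 stroma. Sdhb stood at 229, 278, 164, 170 and 108 CPM in the HP libraries, so that adult HPs lay below E16.5 stroma at 113 CPM. Sdhc overlapped too, with 54.4 to 98.8 CPM in HPs and 46.7 to 59.2 CPM in stroma.

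In complex I, the entry point for electrons from NADH, 8 of 36 subunits were higher in HPs (22.2%, against 25.7% of all genes) and none was lower. Ndufs1, the large iron-sulfur subunit, was higher by 0.89 ± 0.17 on the log2 scale (edgeR adjusted p = 4.2e-03), with 44.1 to 58.5 CPM in HPs and 22.9 to 31.2 CPM in stroma, and its call held in 9 of 9 fits with a library left out. Ndufb7, an accessory subunit, stood at 336, 273, 344, 340 and 428 CPM in HPs and 218, 136, 132 and 130 CPM in stroma (1.10 ± 0.27, adjusted p = 0.012), and lost the call in 4 such fits. The core subunit Ndufv1, which binds NADH, did not pass the test (0.55 ± 0.28, edgeR adjusted p = 0.13). Among the small accessory subunits Ndufa13 and Ndufb11 had groups that overlapped, at 283 to 441 against 336 to 512 CPM and at 293 to 340 against 253 to 373 CPM.

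In complex III, which passes electrons to cytochrome c, 4 of 8 subunits were higher in HPs, against 25.7% of all genes. Uqcrc1, a core protein, stood at 149, 203, 169, 196 and 145 CPM in HPs and 77.3, 71.2, 73.4 and 103 CPM in stroma, without overlap (1.05 ± 0.20, edgeR adjusted p = 4.6e-03, held in 9 of 9 fits). Uqcrfs1, the Rieske iron-sulfur protein, was higher by 0.87 ± 0.18 (adjusted p = 6.7e-03), a call lost without E18.5 HP. Uqcrh, the hinge protein, overlapped, with 522 to 790 CPM in HPs and 405 to 928 CPM in stroma.

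**Figure D2:**
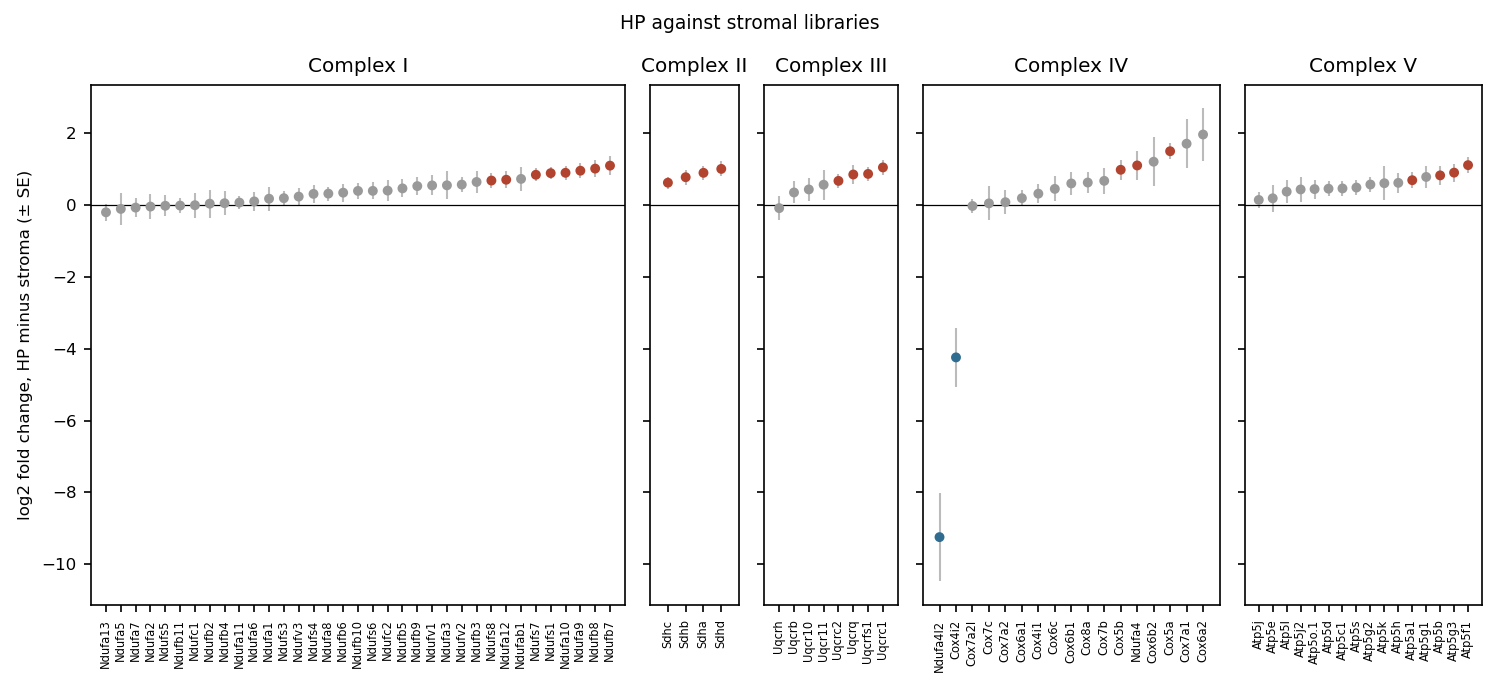
Log2 fold change of 80 of the 84 genes between HP and stromal libraries (edgeR fit with stage as a block, y axis, bars ± SE), grouped by complex and ordered by value. Red and blue points passed an adjusted p of 0.05 (23 higher and 2 lower in HPs) and grey points did not. Both blue points, Ndufa4l2 and Cox4i2, lie in complex IV, and Cox8b, Cox8c and Cox7b2, with 2 or 3 UMIs in HPs, are left out.

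Complex IV, cytochrome c oxidase, held the subunits that differed most in both directions, with 3 of 20 higher in HPs (15%, against 25.7% of all genes). Another 5 were lower in HPs (25%, against 31.9% of all genes), 3 of these on 2 or 3 UMIs in HPs, so that nothing is read from that count. Cox5a, which contacts the catalytic core, stood at 549, 712, 599, 586 and 626 CPM in HPs and 276, 189, 163 and 204 CPM in stroma. Every HP library was above every stromal one (log2 fold change 1.497 ± 0.23, edgeR adjusted p = 1.6e-03), and the call held in 9 of 9 fits. Cox5b was higher by 0.98 ± 0.28 (adjusted p = 0.020) and lost the call in 4 fits, those without E18.5 HP, P0 HP, E18.5 stroma or P0 stroma. Ndufa4 was higher by 1.10 ± 0.40 (adjusted p = 0.048), lost the call in 7 of 9 fits, and had adjusted p = 0.082 by edgeR without cells of recurring barcodes. The common forms Cox4i1 (0.32 ± 0.26), Cox6b1 (0.60 ± 0.32), Cox7b (0.67 ± 0.37) and Cox8a (0.63 ± 0.30) did not pass, with edgeR adjusted p from 0.12 to 0.33.

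Of the 5 complex IV genes that were lower in HPs, 2 were abundant in stroma. Ndufa4l2, a relative of Ndufa4 that is known as a target of the hypoxia-inducible factor, stood at 323, 713, 810 and 684 CPM in stroma and at 0.0716, 0.240, 3.88, 13.4 and 0.0853 CPM in HPs (−9.24 ± 1.23, edgeR adjusted p = 9.4e-04). Cox4i2, the alternative form of Cox4i1 that is known from lung and other oxygen-responsive tissue, stood at 65.7, 87.4, 107 and 239 CPM in stroma and at 1.00, 7.25, 13.3, 8.97 and 1.60 CPM in HPs (−4.24 ± 0.83, adjusted p = 4.8e-03). Both calls held in 9 of 9 fits. The other 3 were near the limit of detection, with 3 UMIs of Cox8b, 2 of Cox8c and 2 of Cox7b2 in all 5 HP libraries together, and 847, 136 and 87 UMIs in stroma. No fold is given for them.

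Complex V, the ATP synthase, had 4 of 16 subunits higher in HPs, or 25% against 25.7% of all genes. Atp5f1, in the peripheral stalk, stood at 1262, 1406, 606, 630 and 488 CPM in HPs and at 457, 319, 320 and 230 CPM in stroma (1.11 ± 0.23, edgeR adjusted p = 6.1e-03, held in 9 of 9 fits). The catalytic head subunits Atp5a1 (0.69 ± 0.22, adjusted p = 0.032) and Atp5b (0.82 ± 0.27, adjusted p = 0.034) passed the edgeR test but lost the call in 7 and 8 of 9 fits, and neither passed without cells of recurring barcodes (edgeR adjusted p = 0.10 and 0.089). Of the 3 genes for the same ring subunit, Atp5g3 was higher by 0.90 ± 0.25 (edgeR adjusted p = 0.019), a call lost in 4 of 9 fits and without cells of recurring barcodes (edgeR adjusted p = 0.057). Atp5g1 (0.78 ± 0.29) and Atp5g2 (0.57 ± 0.21) both had edgeR adjusted p = 0.056. Among them, Atp5g1 gave 31.3% to 40.0% of their UMIs in HPs and 29.5% to 39.0% in stroma.

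The wider gene lists stood as follows in the same comparison, where 25.7% of all genes were called higher and 31.9% lower. None of the 13 mitochondrially encoded subunits was called by edgeR (2, or 15.4%, at an unadjusted p under 0.05, where 62.9% of all genes were), and their median log2 fold change was −0.32. Of 78 mitochondrial ribosomal proteins 57 were higher in HPs (median 0.90), of 13 tricarboxylic acid cycle enzymes 11 were higher (median 0.80), and of 45 assembly factors 23 were higher and 1 lower (median 0.61). Citrate synthase (Cs), the first enzyme of that cycle, was higher by 1.36 ± 0.17 (edgeR adjusted p = 7.2e-04). Of 85 cytosolic ribosomal proteins 2 were higher and 1 lower. Among 13 regulators of mitochondrial biogenesis 6 were higher and 1 lower, and the related coactivators Ppargc1b (2.15 ± 0.31) and Ppargc1a (−2.83 ± 0.62) were called in opposite directions.

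Carriers and other subunits outside the name rule split in the same way, with 4 of 11 higher and 2 lower. Slc25a5, an ADP/ATP carrier of the inner membrane, was higher in HPs by 1.93 ± 0.28 (edgeR adjusted p = 1.4e-03), at 453 to 901 CPM against 127 to 197 CPM. Its relative Slc25a4 was lower by edgeR (−1.41 ± 0.23, adjusted p = 2.4e-03), at 121 to 274 CPM against 483 to 706 CPM. Cycs, the gene for cytochrome c, was higher by 1.21 ± 0.25 and Higd1a, a hypoxia-induced protein, was lower (−1.92 ± 0.27). Of 18 glycolysis genes 2 were higher and 6 lower, the latter close to the background share of lower calls, and of 10 hypoxia targets 6 were lower and none was higher, with Vegfa at −1.93 ± 0.21 and Bnip3 at −2.99 ± 0.33.

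To ask what changed with age, the 2 adult libraries were compared with the 7 perinatal ones with compartment as a block. None of the 84 genes passed edgeR's test (6 residual degrees of freedom), where 0.473% of all genes were called higher and 0.114% lower in the adult (0.587% together), and 4 (Cox7a2l, Atp5a1, Ndufa9 and Sdhc, all with lower values in the adult) had an unadjusted p under 0.05. These are 4.76% of the 84 genes, against 15.3% of all genes tested. No alternative run called any of them higher. A gene that was not called with so few adult libraries is not shown to be unchanged. DESeq2 called 2 of the 84 genes lower in the adult (2.38%), below its share over all genes (2.97%). Cox7a2l, a factor in the joining of complexes III and IV into supercomplexes, stood at 165 CPM in adult HPs against 303 to 408 CPM in the other HP libraries, and at 219 CPM in adult stroma against 263 to 335 CPM. Each adult library thus lay below all perinatal libraries of its compartment (−0.77 ± 0.23, edgeR adjusted p = 0.17, DESeq2 adjusted p = 0.011). Atp5a1 stood at 343 CPM in adult HPs against 484 to 711 CPM and at 265 CPM in adult stroma against 325 to 379 CPM (−0.60 ± 0.23, edgeR adjusted p = 0.26, DESeq2 adjusted p = 0.033).

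The compartments went different ways within the adult libraries, as a description of 1 library each. Adult stroma was the lowest of the 4 stromal libraries for 56 of the 84 genes (66.7%, against 32.5% of all 18392 genes tested) and the highest for 9 (10.7%, against 44.9%). E16.5 stroma was the highest for 69 (82.1%, against 28.9%). Over the 7969 genes with a mean of at least 10 CPM in stroma these background shares were 32.2%, 45.1% and 30.7%. Cox7c went from 1077 CPM at E16.5 to 904, 895 and 417 CPM, Uqcrh from 928 to 681, 769 and 405 CPM, and Cox7b from 486 to 319, 289 and 183 CPM. Cox4i2 went the opposite way, and its part of the summed Cox4i1 and Cox4i2 UMIs was 5.496%, 10.1%, 10.9% and 27.9% in the order of stages. Adult HPs were below the 4 other HP libraries for 24 genes (28.6%, against 32% of all genes), above them for 27 (32.1%, against 20.3%) and within their range for 33. Over the 7780 genes with a mean of at least 10 CPM in HPs these background shares were 43.2% below and 13.6% above. Ndufb2 stood at 281 CPM against 85.6 to 183 CPM and Atp5e at 1239 CPM against 403 to 882 CPM, whereas Sdhc stood at 54.4 CPM against 90.7 to 98.8 CPM and Uqcrc2 at 105 CPM against 167 to 225 CPM.

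Whether the adult difference depended on the compartment was tested with an interaction term. This term is the log2 adult minus perinatal difference in HPs minus that in stroma. Its sign was kept, so that a larger difference in HPs can also come from a fall in stroma. With 1 adult library in each compartment, a gene that was not called is not shown to be unchanged. None of the 84 genes was called by edgeR (background 0.00518%), with 27 (32.1%) at an unadjusted p under 0.05, against 20% of the 19297 genes tested. DESeq2 called 6 with a larger adult difference in HPs (7.14%, against 4.1% of all genes) and none with a smaller one (5.51% of all genes). Cox6b2 came closest. It stood at 44.3, 31.0, 51.0, 70.3 and 95.02 CPM in HPs and at 31.3, 29.6, 34.0 and 4.73 CPM in stroma, so that the adult library was the highest in HPs and the lowest in stroma (interaction 4.01 ± 0.59 on the log2 scale, edgeR adjusted p = 0.089, DESeq2 adjusted p = 1.2e-07). With both E16.5 HP libraries left out, edgeR called 8 of the 84 genes with a larger (9.52%) and 2 with a smaller adult difference in HPs (2.38%), where it called 3.84% and 7.25% of all genes, and Cox6b2 was among the former (adjusted p = 6.4e-03). That run kept E16.5 stroma, so that the perinatal stages were no longer the same in HPs and stroma. Without cells of recurring barcodes edgeR called none, and Cox6b2 had edgeR adjusted p = 0.11.

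The E16.5 HP libraries differed from each other. E16.5 HP 2 was the lowest of the 5 HP libraries for 38 (45.2%, against 22.2% of all genes tested) and the highest for 32 of the 84 genes (38.1%, against 19.7%). Over genes with a mean of at least 10 CPM in HPs these background shares were 22.8% and 25.6%. Uqcr11, a small complex III subunit, stood at 185 CPM in it, at 358 CPM in E16.5 HP 1 and at 555 to 673 CPM in the others, whereas Atp5b stood at 1059, 572 and 512 to 958 CPM. The libraries also differed in composition, with 2141 deposited cells of T cell codes and 1804 of mast codes in E16.5 HP 2 against 18 and 259 in E16.5 HP 1. E16.5 HP 1 also held 334 cells of a recurring barcode, and the levels in this paragraph are not given without them. The part of composition and of those cells in these differences was not tested.

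Within libraries, the share was followed over the deposited codes with at least 50 cells and 100000 UMIs, which gave 67 units of a library and a code in HPs and 64 in stroma. It ran from 0.987% to 4.00% in HPs (median 2.77%) and from 1.42% to 3.77% in stroma (median 2.10%). Since the codes were made from the same counts, their differences are described and not tested. Over all 131 units, which share 9 libraries, Spearman's rho of the share with the cytosolic ribosomal protein share was 0.73, and it was 0.68 within the 67 HP units and 0.64 within the 64 stromal units. With the mitochondrially encoded share it was −0.33 over all units but only −0.20 and −0.11 within the compartments. With the median number of UMIs per cell it was 0.55 within HPs and −0.11 within stroma.

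**Figure D3:**
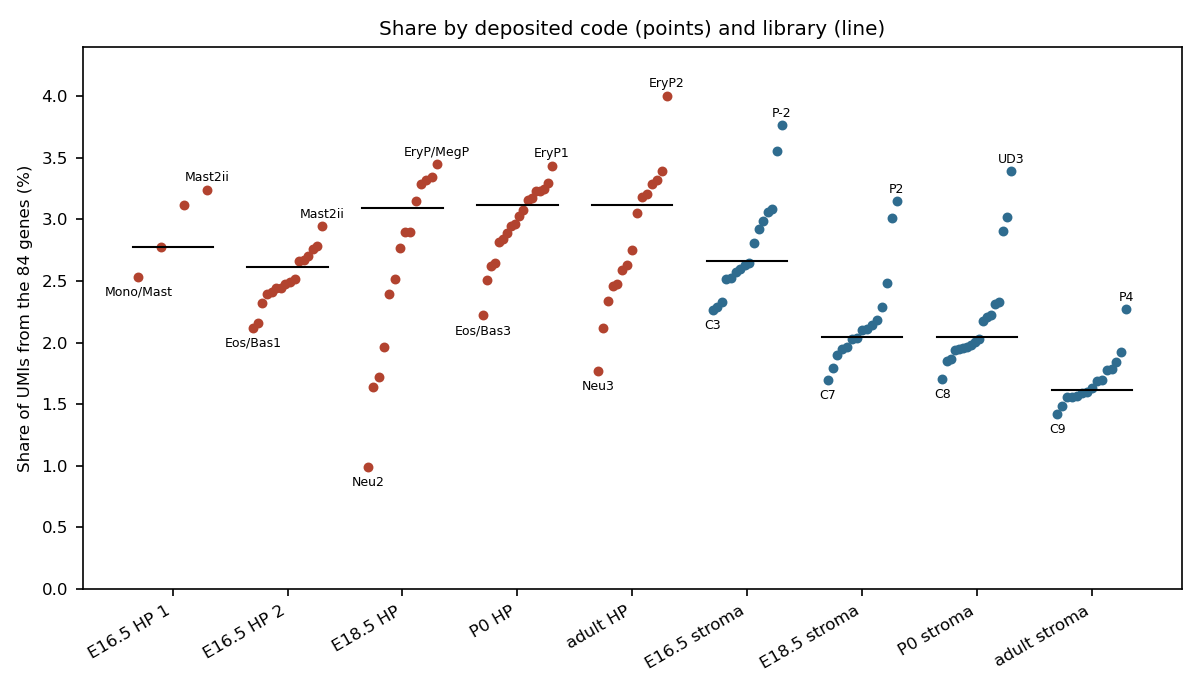
Share of UMIs (%) from the 84 genes in each deposited code (points, ordered within a library) of the HP (red) and stromal (blue) libraries, with the whole library as a line. The highest and lowest codes are named. Erythroid codes top the E18.5, P0 and adult HP libraries at 3.45%, 3.44% and 4.00%, and Neu2 at E18.5 lies lowest of all at 0.987%.

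Erythroid progenitors stood at the top of the HP libraries from E18.5 on. EryP2 in adult HPs (473 cells), which had all 6 erythroid markers above the rest, reached 4.00%, and EryP1 at P0 (5 of 6 markers) and EryP/MegP at E18.5 (3 of 6 markers) reached 3.44% and 3.45%. In EryP2, 73 of the 84 genes were above the median of the other 14 adult HP codes and 42 above every one of them. They were led by Cox6b2, Atp5g1, Uqcr11, Ndufs7 and Ndufb9. Of all genes tested 6.96% were above every other code, and of those with a mean of at least 10 CPM over these codes 10.7%. Cox7a2l was among the 5 genes with the lowest ratio to the other codes in each of these erythroid codes. Without cells of recurring barcodes, EryP/MegP had 3.41% and EryP1 and EryP2 moved by under 0.01 percentage points. Their ribosomal protein share was high too, at 37.1% in EryP2, and without ribosomal and mitochondrially encoded transcripts in the denominator EryP2 stood at 6.64%. E16.5 had no code of erythroid progenitors.

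Neutrophil codes stood lowest in the E18.5 and adult HP libraries, although the neutrophil code of E16.5 HP 2 had 2.32%. Neu2 at E18.5 (71 cells, 4366 UMIs in the median cell) had 0.987% and Neu3 in the adult (521 cells) had 1.77%, and both had 4 of 6 neutrophil markers above the rest. In Neu2, 66 of the 84 genes were below all other codes of E18.5 HP (25.3% of all genes tested were, and 46.9% of those with a mean of at least 10 CPM over these codes) and none was above the median. The ribosomal protein share was also low, at 4.54% and 11.5%, as was the mitochondrially encoded share, at 0.795% and 1.42%. Without those transcripts in the denominator the values were 1.04% and 2.03%.

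Codes of HSPCs lay in the middle of the HP range. Summed per library, they had 2.41% in E16.5 HP 2, 2.89%, 3.01% and 2.59% in the later libraries (E16.5 HP 1 had too few such cells), and in each library from E18.5 on they were below the myeloid progenitor codes, at 3.30%, 3.18% and 3.21%. Mast cell codes had 3.04% in E16.5 HP 1, or 2.81% in its 80 cells without a recurring barcode, and 2.70%, 2.89% and 2.81% in E16.5 HP 2, E18.5 HP and P0 HP. In the adult they had 2.82% in 69 cells, of which 8 were without a recurring barcode and had 2.11%. Monocyte codes had 2.32%, 2.99% and 3.25% from E18.5 to the adult, in the order of stages.

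In stroma, the muscle-marker codes had the highest shares at E16.5. P-2 had 3.77% (260 cells) and P1i 3.56% (685 cells), and their later counterparts had 3.01%, 2.90% and 1.92% in the order of stages. P-2 was above all other E16.5 stromal codes for 38 of the 84 genes, led by Cox6a2 and Cox8b, the forms known from heart and skeletal muscle. Of all genes tested 8.63% were above all other codes, and of those with a mean of at least 10 CPM over these codes 12.2%. The pericyte-marker codes had 3.09%, 3.15%, 3.02% and 2.27% in the order of stages, and P4 was the highest code of adult stroma. The lowest stromal codes were C9 (1.42%, 573 cells), with 3 of 4 chondrocyte markers above the rest, and F9 (1.48%, 914 cells), both adult.

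In stroma, the share was lower in the adult than at every earlier stage in each group of codes found at all stages. The groups follow the letters that the codes start with, and not their markers. The F codes of E16.5 thus hold the pericyte-marker code F4, and the P codes join muscle-marker and pericyte-marker codes after E16.5. A change within a cell type cannot be told apart from a change in cell types here. Codes starting with C went from 2.40% at E16.5 to 1.93%, 1.88% and 1.61%, and those starting with F from 2.67% to 2.13%, 2.11% and 1.58%. Endothelial codes went from 3.06% to 2.48%, 2.33% and 1.68%, with sinusoidal and arterial codes (SECs and AECs) joined in the adult at 1.56% and 1.77%. By gene, adult cells were below all 3 perinatal libraries for 50 of 84 genes in the C codes (59.5%, against 36.9% of all genes tested), 66 in the F codes (78.6%, against 38.6%) and 67 in the endothelial codes (79.8%, against 14.4%). Over genes with a mean of at least 10 CPM in the codes these background shares were 38.8%, 40.5% and 21%. The ribosomal protein share fell alongside, for example from 27.2% in E16.5 endothelial cells to 11.8% in adult SECs, and with it and the mitochondrially encoded transcripts out of the denominator the F codes still went from 3.92% to 1.83%. Each step compares 1 library with 1 library and was not tested.

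**Figure D4:**
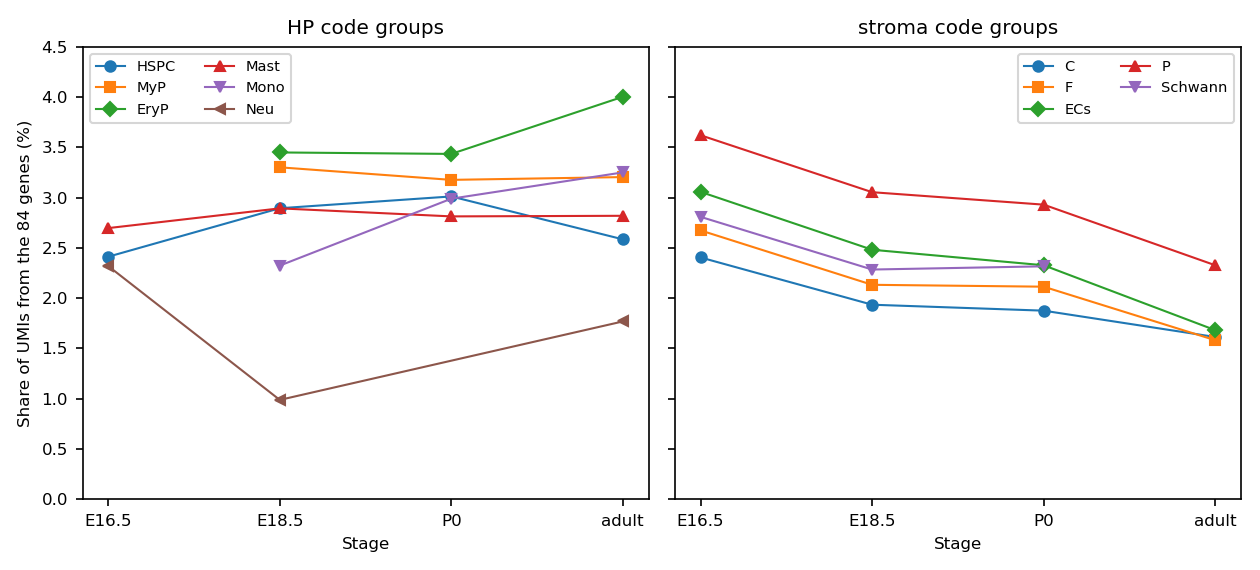
Share of UMIs (%) from the 84 genes by stage in groups of deposited codes, made by the letters they start with, with at least 50 cells. HPs are on the left (E16.5 from library 2, no value for Neu at P0) and stroma on the right. All 5 stromal groups start higher at E16.5 than at their last stage (F codes 2.67% to 1.58%), whereas erythroid codes reach 4.00% in the adult and HSPC codes move from 2.41% to 3.01% at P0 and 2.59% in the adult.

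By gene, the spread over the 131 units differed much between the subunits. The smallest spreads, as the SD of log2(CPM + 1), among genes with a mean of at least 10 CPM, were those of Ndufb11 (0.27), Atp5j (0.32), Ndufa13 (0.33), Cox6a1 (0.35) and Ndufa7 (0.36). The largest, over the same genes, were those of Ndufa4l2 (4.14), Cox4i2 (2.65), Cox6b2 (1.28), Cox5a (0.84) and Ndufa4 (0.78). All 5 of these belong to complex IV, but this spread pools HPs and stroma. Cox5a had an SD of 0.47 within HP units and 0.57 within stromal units. Genes of other complexes varied more than Cox5a there, such as Atp5k (0.87) and Ndufa5 (0.83) within HPs and Ndufa3 (0.60) within stroma.

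Ndufa4l2 was spread over all stromal codes and nearly missing from HP codes. It stood at 19.7 to 2377 CPM over the 64 stromal units and had a median of 0 CPM over the 67 HP units. Its highest levels were in C2ii at P0 (2377 CPM) and E18.5 (1888 CPM), in the adult F9 (1887 CPM) and in the pericyte-marker code P2 at P0 (1724 CPM). Its lowest stromal levels were in muscle-marker codes, at 19.7 CPM in P-2 and 23.2 CPM in the adult P1. In C2ii at P0, Ndufa4l2 gave 94.4% (95% Clopper-Pearson interval 94.1 to 94.7) of the summed UMIs of Ndufa4 and Ndufa4l2, and Ndufa4 had its lowest level of all units there, 140 CPM.

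Most Ndufa4l2 UMIs of the E18.5 and P0 HP libraries came from erythroid codes. EryP1 at P0 stood at 76.3 CPM (1314 of the 1700 UMIs in that library), EryP/MegP at E18.5 at 23.7 CPM (215 of 250 UMIs) and MegP1 at P0 at 15.6 CPM, whereas the adult library held 5 UMIs in all. In E16.5 HP 2, Eos/Bas1 held 20 of the 23 UMIs, at 18.6 CPM. The transcripts most like it over the 131 units by Spearman's rho were Fmod (0.90), Cpxm2 (0.89), Sdk2 (0.89), Col6a2 (0.89) and Fam180a (0.89). These units pool HPs and stroma, so that a gene high in stroma and low in HPs gets a high rho by that alone. No rho within a compartment is given for it.

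Cox4i2 too was found in all 64 stromal units, at 3.25 to 607 CPM. It was highest in the adult code C10 (607 CPM), with 4 of 4 chondrocyte and 2 of 2 hypertrophic markers above the rest, then in F9 (485 CPM) and in the pericyte-marker codes P2 at E18.5 (479 CPM) and P0 (475 CPM). In C10 it gave 51.7% (50.9 to 52.5) of the summed Cox4i1 and Cox4i2 UMIs and in F9 50.2% (49.3 to 51.1). In HPs it was at most 34.7 CPM, in MyP1 at E18.5, followed by HSPC2 at E18.5 (32.7 CPM) and HSPC2 at P0 (31.4 CPM). The most like transcripts, again over both compartments, were Tspan3 (0.89), Tsc22d1 (0.87), Crispld1 (0.86), Fzd9 (0.86) and Ppic (0.85).

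**Figure D5:**
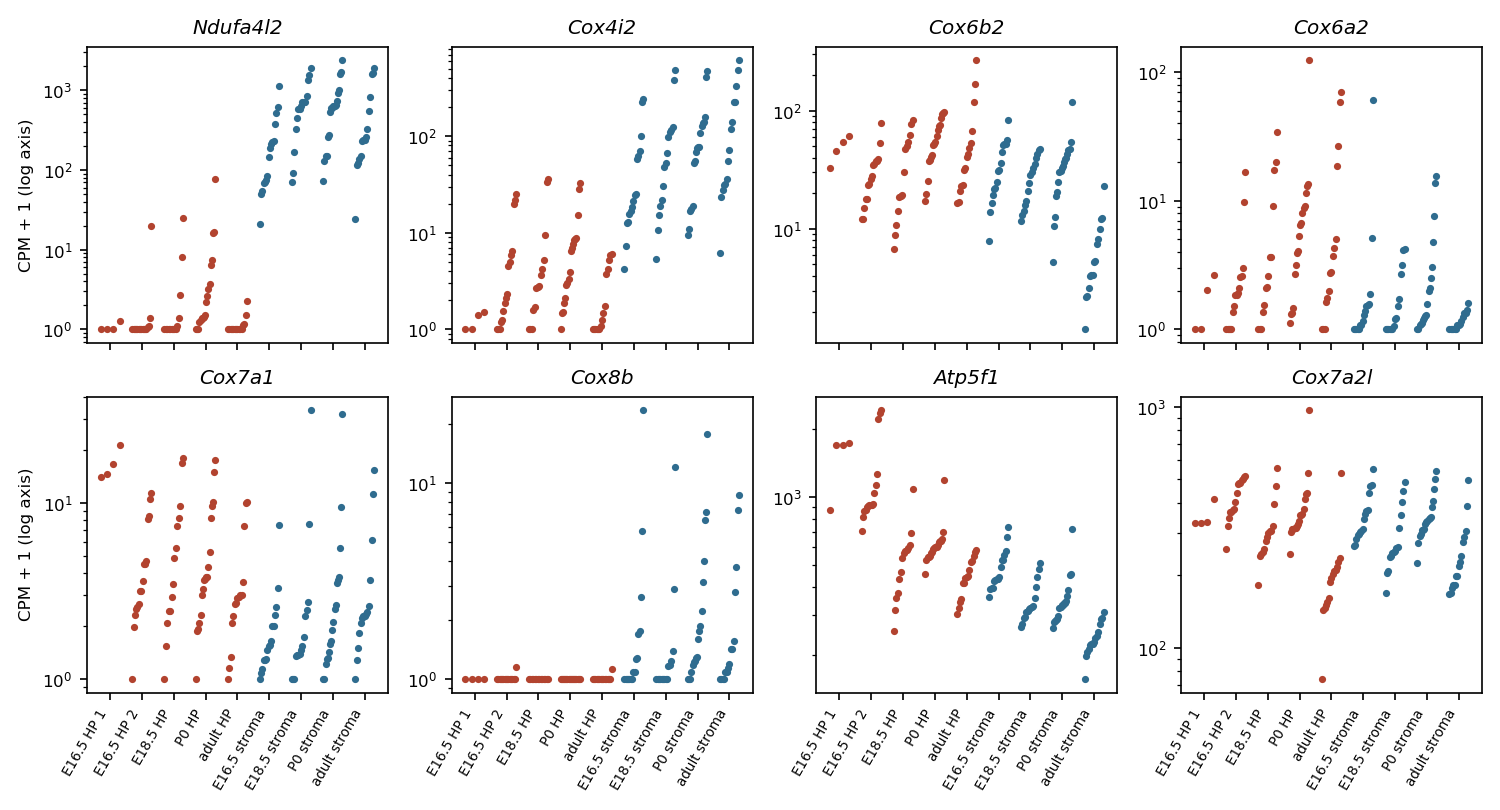
Level (CPM + 1, log axis) of 8 subunit genes in each deposited code (points, ordered within a library), HP libraries in red and stromal libraries in blue. Ndufa4l2 spans 19.7 to 2377 CPM over stromal codes with a median of 0 CPM over HP codes, Cox6b2 peaks at 265 CPM in an adult HP code, and Atp5f1 lies highest in the E16.5 HP libraries at up to 2410 CPM.

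Cox6b2, better known from testis, had its highest level in an erythroid code of the adult. It stood at 265 CPM in EryP2, at 168 CPM in MyP4 (40 UMIs), which had 3 of 6 erythroid markers above the rest, and at 117 CPM both in MegP2 and in the P0 stromal code UD4. At P0 it stood at 95.7 CPM in EryP1 and 95.1 CPM in MegP1. In EryP2 it gave 21.8% (21.2 to 22.5) of the summed Cox6b1 and Cox6b2 UMIs, compared with 12.4% in adult HPs as a whole and 1.78% in adult stroma. The share was as high in other codes, at 22.1% in Eos/Bas1 of E16.5 HP 2 and 23.1% in UD4 of P0 stroma, and Cox6b1 too had its highest level of all units in EryP2, at 949 CPM. Between the compartments it did not pass the test (1.21 ± 0.68, edgeR adjusted p = 0.17).

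Cox6a2, the muscle form of Cox6a1, was highest in separate cell types among the codes large enough to be followed. Most of its 239 UMIs in adult stroma and 66 UMIs in E16.5 HP 1 lay outside those codes, of which none held more than 5 and 4 UMIs. It stood at 122 CPM in LymP at P0, which had 2 of 3 lymphoid progenitor and 2 of 5 dendritic cell markers above the rest, at 68.6 CPM in Mono5 and 57.5 CPM in HSPC5 of adult HPs, and at 59.4 CPM in the muscle-marker code P-2 of E16.5 stroma. Between the compartments its edgeR adjusted p was 0.055 (1.96 ± 0.73). The most like transcripts had lower rho than for Ndufa4l2 and Cox4i2, which differed more between the compartments. They were Ethe1 (0.56), Zfp422 (0.55), Rbm34 (0.54), Vpreb2 (0.54) and Klrd1 (0.53).

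Cox7a1 and Cox8b, further muscle forms, were rare. Cox7a1 reached 32.6 and 31.1 CPM in the pericyte-marker codes P2 at E18.5 and P0 and 20.5 CPM in Mast1 of E16.5 HP 1, on 62, 109 and 50 UMIs. In Mast1 it stood at 14.8 CPM on 12 UMIs without cells of recurring barcodes, and Mast1 of E16.5 HP 2 had 7.17 CPM on 93 UMIs. In HPs it was not confined to mast codes, with 17.0 CPM in Bcell1 at E18.5 and 14.1 CPM in Bcell1 at P0, on 60 and 76 UMIs. Between the compartments it did not pass the test (1.71 ± 0.68, edgeR adjusted p = 0.068). Cox8b reached 22.5 CPM in P-2 at E16.5, 16.9 CPM in P3 at P0 and 11.1 CPM in P1 at E18.5, which are all muscle-marker codes, and 7.72 CPM (6 UMIs) in the adult P1. Of its 236 UMIs in adult stroma, 40 were in F8 and 27 in F11, and most were outside the codes large enough to be followed. Neither reached the level of its common partner in any library, with Cox7a1 at no more than 2.77% of the summed Cox7a1 and Cox7a2 UMIs and Cox8b at no more than 0.549% of those of Cox8a and Cox8b.

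Atp5f1 was highest in mast cells. It stood at 2199 to 2410 CPM in the 3 mast codes of E16.5 HP 2, where the other 13 codes stood at 704 to 1268 CPM, and at 1698 to 1729 CPM in the 3 mast codes of E16.5 HP 1 (1578 to 1883 CPM without cells of recurring barcodes). At E18.5 the mast code Mast3 stood at 1081 CPM against 256 to 690 CPM in 13 other codes, and at P0 it stood at 1183 CPM against 458 to 701 CPM in 17 others. The mast code was thus the highest code for this gene at each of the stages that had one large enough, without overlap with the others. The E16.5 HP libraries, in which mast codes hold a large part of the cells, were also those with the highest Atp5f1 in the comparison of compartments above. The codes outside the mast group were also higher in E16.5 HP 2, at 704 CPM or more, than in any later HP library apart from Mast3, at 701 CPM or less. The only other code of E16.5 HP 1 large enough, Mono/Mast, stood at 876 CPM, and at 523 CPM without cells of recurring barcodes.

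The level of Cox7a2l also differed between codes. Its highest level was in the P0 code BCell2 (965 CPM on 234 UMIs), and Bas1 in E18.5 HP (558 CPM), LymP at P0 (528 CPM), Pre/Pro-B2 in the adult (532 CPM) and TCell1 in E16.5 HP 2 (517 CPM) were also high. The muscle-marker codes P-2 (553 CPM) and P3 (540 CPM) were the highest in stroma. Neu3 in the adult was the lowest of all, at 73.3 CPM.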

How the data were processed

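Cells were sorted by the authors and made into 10x 3′ libraries, and the submitters' processing notes name Cell Ranger 3.1.0, R 4.0 and Seurat 3.1.5 with the mm10 build. The authors deposited raw UMI counts per gene and cell together with a table that gives each cell's library, code, number of UMIs as counts and mitochondrial share as a fraction. The authors had removed cells of few UMIs, high mitochondrial share or the highest gene and UMI numbers (putative doublets), and no doublet caller was run here. Antibody counts were deposited too and were not used here. Counting intervals were exact Poisson intervals for levels and Clopper-Pearson intervals for pairs, at 95%.

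UMIs were summed per library over cells of at least 1000 UMIs and tested with edgeR 4.0.16 in R 4.3.3 (TMM, filterByExpr, quasi-likelihood F test, adjusted p under 0.05). The fits were stage plus compartment, compartment plus adult or perinatal, and both with their product. Each fit was first tested on simulated data, in which most of the changed genes were missed, and all of them by the interaction fit. That no gene is called for the interaction is therefore not read as a lack of change. Alternatives used DESeq2 1.42.0, other scaling, filters and sets of cells or libraries. Codes needed 50 cells and 100000 UMIs. A marker counted as above the rest at 2-fold and 20 CPM. Correlations over codes are descriptions. Other steps used Python 3.11.15, numpy 2.4.6, pandas 2.3.3, scipy 1.17.1 and matplotlib 3.10.9.

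The genes, lists and tests were chosen with earlier results of these data known. Genes were named as restricted subunits and their partners, core subunits, the 10 largest called changes, the 5 most and least variable over codes, and the genes most like Cox4i2, Ndufa4l2 and Cox6a2. Others were named after their values were seen. The values of 1 gene are not reported here.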

Additional observations from a re-analysis of the deposited data

Results flagged for a closer look

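Among 73 sets of 4 or 5 library values examined for the named genes and the share, 9 held 1 library that stood far from the others of its compartment by Dixon's ratio (limit 0.71 for 5 and 0.829 for 4 libraries). Chance gives about 1 in 20 for a single set of libraries of the same kind. The sets reuse the same libraries and mix stages, so that their count cannot be read against that chance. In HPs, E16.5 HP 2 was low for Cox5b (428 CPM, others 620 to 667 CPM), Cox6b1 (371 CPM, others 611 to 686 CPM) and Ndufa7 (194 CPM, others 312 to 340 CPM). Cox7a1 was high in E16.5 HP 1 at 13.4 CPM (others 1.98 to 4.80 CPM), Ndufa4l2 was high in P0 HP at 13.4 CPM (others 0.0716 to 3.88 CPM) and Sdhc was low in adult HP at 54.4 CPM (others 90.7 to 98.8 CPM). In stroma, E16.5 was high for Atp5j (606 CPM, others 411 to 440 CPM) and Ndufb7 (218 CPM, others 130 to 136 CPM), and the adult library was low for Cox6b2 at 4.73 CPM (others 29.6 to 34.0 CPM). Each group holds libraries of different stages, so that a library that stands apart cannot be told apart from its stage, except for the E16.5 HP pair.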

How the results depend on the processing

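Directions of the fold changes printed for the 84 genes held under every alternative run, and those of genes of the other lists were computed in 1 fit alone. With 1 library left out at a time, genes higher in HPs numbered 5 to 31 and genes lower in HPs 5 in every fit (3 of them with 2 or 3 UMIs in HPs, so that this count says nothing about stability), genes lower in the adult 0 to 1 (Cox6b2, without adult HP) and higher 0, and none of the 84 was called for the interaction, which cannot be fitted without an adult library. Without the stage block 3 genes were lower in HPs (82 of the 84 were tested). DESeq2 called 2 genes lower in the adult and 6 with a larger adult difference in HPs, and without both E16.5 HP libraries, a choice made after seeing the data, edgeR called 8 with a larger and 2 with a smaller one. Larger and smaller are again meant with the sign kept, and the run without the E16.5 HP libraries kept E16.5 stroma. The cause of these changes was not tested. Over all genes, DESeq2 called 774 higher and 546 lower in the adult, where edgeR called 87 and 21, and 792 and 1064 for the interaction, where edgeR called 0 and 1. Without ribosomal protein and mitochondrially encoded genes in the denominator the share was 4.02%, 3.71%, 4.59%, 4.76% and 4.69% in HPs (E16.5 1 and 2, E18.5, P0, adult), 3.97%, 2.85%, 2.91% and 1.92% in stroma, 6.64% in EryP2, 6.53% in P-2, 1.04% in Neu2 and 1.77% in C9. As the median over cells it was 2.81%, 3.00% and 2.60% in HPs at E18.5, P0 and in the adult, 3.82% in P-2, 0.936% in Neu2 and 1.39% in C9. With each cell thinned to 1000 UMIs it was 2.65% in E16.5 HP 1, 2.73%, 2.96% and 2.68% in the later HP libraries, 3.92% in EryP2 and 3.85% in P-2. As a mean over codes it was 2.92% in E16.5 HP 1, 2.59%, 2.96% and 2.84% in the later HP libraries, and 2.78%, 2.19% and 2.21% in stroma at E16.5, E18.5 and P0. Without cells of recurring barcodes, also added after seeing the data, it was 2.48% in E16.5 HP 1 and 2.98% in E18.5 HP. The other library shares moved by less than the SD of the E16.5 HP pair (0.115 percentage points), and the other values of EryP2, P-2, Neu2 and C9 by less than their interval. Further codes were not counted in this. The mast codes of E16.5 HP 1 and of the adult moved further without cells of recurring barcodes, as given above. No paired analysis was possible because only the E16.5 HP libraries carry replicate numbers, so that the groups compared share fewer than 2, and stage was the block of the HP against stroma fit. Depth did not limit the common subunits, but Cox8b, Cox8c and Cox7b2 in HPs, and Ndufa4l2 in the E16.5 and adult HP libraries, rest on few UMIs.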
